A study of Mus musculus with 10 samples.

Results

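Colonies of 2 Cdk6 genotypes were compared: colonies whose cells make a kinase-dead CDK6 protein (Cdk6-K43M) and colonies whose cells lack the gene (Cdk6-/-). The comparison takes 8 of the 10 arrays of the series, the 4 titled as single K43M samples and the 4 titled as single Cdk6-/- samples. In both groups, bone marrow cells of donor mice 6 weeks old were transduced with a retrovirus in the presence of Polybrene and embedded after 24 h in methylcellulose without growth factors. BCR-ABL+ colonies were picked after 10 days for total RNA, with no other treatment, so every group carries BCR-ABL. Each sample was labelled with Cy5 and hybridised against a single pool of 4 wild-type (Cdk6+/+) colony RNAs labelled with Cy3. Each array thus gives the log2 ratio of a mutant sample to the wild-type pool, called its log2 ratio below, and the pool and the dye cancel in the difference between the mutants. The other 2 arrays hold pools of the same mutant RNAs with the dyes exchanged and were left out of the fit. The labels call the samples biological replicates and do not tie them to separate animals, so the p-values measure the spread between these samples. The labels do not say how the K43M allele was made, whether both copies carry it, or how many colonies went into a sample.

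CDK6 is a cyclin-dependent kinase. Bound to a D-type cyclin, it phosphorylates the retinoblastoma protein RB, which frees E2F transcription factors to switch on genes for DNA replication. The lysine that K43M replaces by methionine belongs to the site that holds ATP, so the mutant protein is present but cannot phosphorylate its targets. CDK6 is also known to sit at promoters and to affect transcription apart from its kinase activity, including in BCR-ABL+ lymphoid cells. Comparing kinase-dead with absent protein addresses which transcripts differ when the protein is there without its activity.

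Of 22008 genes tested, 113 (0.513%) differed between Cdk6-K43M and Cdk6-/- at an adjusted p under 0.05 (limma's moderated test with Benjamini-Hochberg adjustment). Of all genes tested, 58 (0.264%) were higher and 55 (0.25%) were lower in Cdk6-K43M. The largest named differences were higher levels of Gbp2b, Tmem40 and Uchl1 and lower levels of Cand2, Mettl23 and H2-Q5 in Cdk6-K43M. At an unadjusted p under 0.05 there were 3095 genes, 14.1% of those tested. The 4 K43M values lay wholly above or wholly below the 4 Cdk6-/- values in 1793 genes (8.15%), and in every one of the 113 that passed. The differences of 35 genes were at least 2-fold, and those of 10 genes at least 4-fold. The count moved with the samples used, from 36 without Cdk6-/- replicate 1 to 77 without Cdk6-K43M replicate 2, and with the slide as a block it was 33.

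All samples showed a similar share of probes well above background, 46.9 to 49.9% in the mutant channel and 48.5 to 50% in the pool channel. Correlations of log2 ratios over genes ran from 0.329 to 0.594 between Cdk6-/- samples, from 0.322 to 0.672 between K43M samples and from 0.0942 to 0.546 across genotypes. These values rest on genes, which are not independent, and all ratios share the pool. The arrays lay on 3 slides, and every slide held equal numbers of K43M and Cdk6-/- samples, so the slide block left each difference as it was and changed only its error. All 113 differences had the same sign within each of the slides, which must be so where the groups do not overlap. K43M replicate 4 stood apart from the other samples in macrophage genes, with the values given below, and without it 59 genes passed.

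Markers of B-lineage progenitors were measured throughout. All 32 listed ones were measured and well above background in all 8 mutant samples. So were 15 of 25 measured granulocyte, monocyte and macrophage markers (36 listed) and 8 of 13 T and NK cell markers (24 listed). It was 5 of 8 for erythroid and megakaryocyte markers (20 listed) and 2 of 3 for mast cell and basophil markers (12 listed). Listed genes without a kept probe matched to their symbol were not measured.

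A single probe read Cdk6, with a signal well above background in all samples of both genotypes. Its log2 ratios were -0.37, -0.40, -0.18 and 0.0024 in Cdk6-/- replicates 1 to 4 and 0.31, 0.40, 0.33 and 0.83 in K43M replicates 1 to 4. Every K43M sample lay above every Cdk6-/- sample and above the pool. The difference was 0.70 (log2, SE 0.14, adjusted p = 0.089) and did not pass. It passed in 3 alternatives. All 10 arrays gave 0.77 (adjusted p = 0.0154), but this fit counts pools of the same RNAs as if they were further samples. Arrays centred on their medians gave 0.84 (0.0457), and the scanner software's processed signals gave 1.63 (0.0318). Over all alternatives its adjusted p ran from 0.0154 to 0.246. Within the slides the difference was 0.68, 0.70 and 0.73. No source used here places the probe inside or outside the deletion, so the level is no check of the labels. None of the 12 tested genes within 10 tested genes of Cdk6 passed, and their differences ran from -0.19 to 0.10.

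The promoters of 4 genes are shown for genes that the results turn on: Gbp2b and Trim12a, which belong to families known from the interferon response and differed in opposite directions, and Spry1 and Plk3, both early growth-response genes that were higher in Cdk6-K43M. Each is the stretch of 250 bases before the gene's start in RefSeq, read 5′ to 3′ on the gene's strand in the build GRCm38.p6. Capitals mark CCAAT boxes (CCAAT), GC boxes (GGGCGG) and interferon-stimulated response elements (GAAA, any 2 bases, GAAA), each on either strand.
Gbp2b: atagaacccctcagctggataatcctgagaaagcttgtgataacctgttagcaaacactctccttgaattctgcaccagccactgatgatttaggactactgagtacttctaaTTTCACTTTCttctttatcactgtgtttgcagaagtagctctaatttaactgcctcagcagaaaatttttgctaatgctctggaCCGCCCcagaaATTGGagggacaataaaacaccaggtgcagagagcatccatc
Trim12a: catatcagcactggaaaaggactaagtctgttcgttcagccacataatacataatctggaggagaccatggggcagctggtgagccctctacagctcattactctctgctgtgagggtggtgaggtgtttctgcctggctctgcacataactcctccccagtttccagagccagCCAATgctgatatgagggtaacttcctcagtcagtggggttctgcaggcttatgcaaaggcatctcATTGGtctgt
Spry1: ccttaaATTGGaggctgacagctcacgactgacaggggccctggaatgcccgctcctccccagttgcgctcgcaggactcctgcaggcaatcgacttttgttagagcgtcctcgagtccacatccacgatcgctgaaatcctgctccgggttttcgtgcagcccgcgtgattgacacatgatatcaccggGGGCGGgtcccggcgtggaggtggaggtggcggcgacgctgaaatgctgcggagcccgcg
Plk3: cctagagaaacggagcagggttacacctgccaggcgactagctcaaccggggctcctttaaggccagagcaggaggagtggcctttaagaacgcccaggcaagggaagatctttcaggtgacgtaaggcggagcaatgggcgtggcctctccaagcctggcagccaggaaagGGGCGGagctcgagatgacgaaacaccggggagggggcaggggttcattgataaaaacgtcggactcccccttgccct
They lie at chr3:142594597-142594846 (plus strand), chr7:104315496-104315745 (minus strand), chr3:37639697-37639946 (plus strand) and chr4:117133964-117134213 (minus strand). The Gbp2b promoter holds 1 interferon-stimulated response element, on the reverse strand, 137 to 128 bases before the start, with a GC box and a CCAAT box nearer to it. That element occurs in 3.04% of the 27025 promoters of the table. No such element lies in the 250 bases shown for Trim12a, which hold CCAAT boxes only, a motif found in 34.5% of all promoters. The windows of Spry1 and Plk3 share a GC box, which 32.9% of all promoters hold. None of the 4 windows holds a cAMP response element (TGACGTCA), an AP-1 site (TGANTCA), a gamma-activated site (TTCNNNGAA) or a CArG box.

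Promoters were found for 54 of the 68 genes with a symbol that passed. Of the 35 for genes higher in Cdk6-K43M, 11 (31.4%) held a CCAAT box and 12 (34.3%) a GC box. Of the 19 for genes lower in Cdk6-K43M, 9 (47.4%) held a CCAAT box and 6 (31.6%) a GC box. The AP-1 site was in 3 of the 35 and 2 of the 19, against 6.87% of all promoters. These matches describe the letters in these windows and not binding.

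Gbp2b had the largest difference of any gene with a symbol. It encodes a guanylate-binding protein, 1 of a family of GTPases that interferon induces and that act against intracellular pathogens. Its log2 ratios were -0.53, -0.65, 0.0087 and -0.52 in Cdk6-/- replicates 1 to 4 and 4.43, 3.59, 2.59 and 6.25 in K43M replicates 1 to 4, with means of -0.42 ± 0.29 and 4.21 ± 1.55 (SD, n = 4). All K43M samples were far above the pool, and replicate 4 was the highest, while the Cdk6-/- samples were at or below the pool. The difference was 4.63 (log2, SE 0.65, adjusted p = 0.0247), and 4.96, 5.17 and 3.24 within the slides. In Cdk6-/- the probe was well above background in 1 of 4 samples, so the size rests on a level near background, and with the processed signals it was 8.11. Its call was lost without any 1 of the Cdk6-/- samples and without K43M replicate 1 (adjusted p up to 0.094), and with the slide block (adjusted p = 0.078). Its neighbour in the family, Gbp2, had the opposite sign, at -0.86 (adjusted p = 0.316). Members of the family share long stretches of sequence, and probes may not tell them apart.

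Tmem40 encodes a transmembrane protein. The predicted gene Gm15987, whose kind of name the naming rule leaves out, had a slightly larger difference (3.50). Log2 ratios of Tmem40 were -0.065, -0.50, -0.36 and 0.86 in Cdk6-/- and 3.60, 3.12, 4.16 and 2.96 in K43M replicates 1 to 4. The Cdk6-/- samples lay around the pool and all K43M samples were well above it. The difference was 3.48 (log2, SE 0.34, adjusted p = 0.00446), or 11.1-fold, with 3.67, 2.79 and 4.66 within the slides. It passed without any 1 of the 8 samples, but its call was lost with the replicate number as a block (adjusted p = 0.0582).

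Uchl1 encodes an abundant ubiquitin hydrolase of neurons that is also made in germinal-centre B cells. It had log2 ratios of -2.87, -3.02, -2.54 and -3.32 in Cdk6-/- and -1.29, 0.056, -0.79 and -0.33 in K43M replicates 1 to 4. All Cdk6-/- samples were far below the pool, and the K43M samples spread from clearly below the pool to level with it. The difference was 2.35 (log2, SE 0.28, adjusted p = 0.0103), or 5.09-fold. Without Cdk6-/- replicate 1 its adjusted p was 0.0512, and with the replicate number as a block it was 0.0704.

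Fam183b and Pianp were near background in Cdk6-/-, where neither probe was well above background in any sample. Both probes were kept only through the K43M samples, so the filter itself favoured genes that are higher there. Fam183b had 2.24, 2.04, 2.73 and 1.36 in K43M replicates 1 to 4 against -0.16, 0.23, 0.23 and -0.043 in Cdk6-/-. The fitted difference was 2.03 (log2, SE 0.25, adjusted p = 0.0132), and 4.21 with the processed signals, where the call was lost. Pianp, which encodes a ligand of an inhibitory receptor of immune cells, had 1.23, 1.08, 1.59 and 1.57 in K43M against -0.17, -0.16, 0.041 and -0.26 in Cdk6-/-. The fitted difference was 1.50 (log2, SE 0.13, adjusted p = 0.00208), 2.34 with the deposited signals and 4.57 with the processed signals. These sizes rest on Cdk6-/- levels at background. The groups were wide apart in both genes. The call of Fam183b was lost without Cdk6-/- replicate 1 or 4 or K43M replicate 1 (adjusted p up to 0.064), and Pianp passed under every alternative that measured it.

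Gem and Gprc5b encode signalling proteins. Gem, a small GTP-binding protein induced by mitogens in lymphocytes, had -0.99, -0.31, -0.53 and -0.30 in Cdk6-/- and 0.55, 0.96, 0.53 and 1.15 in K43M replicates 1 to 4. It lay below the pool in every Cdk6-/- sample and above it in every K43M sample, with a difference of 1.33 (log2, SE 0.19, adjusted p = 0.0292). The orphan receptor gene Gprc5b had 0.065, -0.046, -0.19 and -0.21 in Cdk6-/-, where 1 of 4 samples was well above background, and 1.24, 0.48, 1.25 and 1.06 in K43M. It was higher in every K43M sample (adjusted p = 0.0362), and its second probe gave 1.50 (log2). Its size rests on a level near background, being 1.70 with the deposited log2 ratios and 3.31 with the processed signals. The probe of Gprc5b, like those of Fam183b and Pianp, was kept only through the K43M samples. The call was lost with those signals and with the slide block (adjusted p = 0.0675). With 7 samples, Gem did not pass whichever sample was left out (adjusted p from 0.0533 to 0.0799), and Gprc5b passed only without K43M replicate 2 (adjusted p up to 0.108 otherwise).

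Scn4b, which encodes an auxiliary subunit of sodium channels, was above the pool in both mutants. Sample log2 ratios were 0.62, 0.76, 0.97 and 0.53 in Cdk6-/- and 1.65, 1.73, 1.99 and 2.07 in K43M replicates 1 to 4, a difference of 1.14 (log2, SE 0.13, adjusted p = 0.00802). The groups did not overlap, and the gene passed under every alternative run. Pir, on the X chromosome, encodes pirin, a nuclear iron-binding protein. It had -0.66, -1.01, -0.59 and -0.69 in Cdk6-/- and 0.059, 1.51, 0.93 and 1.42 in K43M, where replicate 1 was close to the pool and the other three were high. In Cdk6-/- the probe was well above background in 1 of 4 samples. The difference was 1.72 (log2, SE 0.29, adjusted p = 0.0482), and 3.95 with the processed signals, where the call was lost. It passed in 1 of the 8 fits without a sample, the one without K43M replicate 1 (adjusted p up to 0.149 in the others).

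A further 5 named genes were higher in Cdk6-K43M, at differences from 0.84 to 0.93. Dtd2 (0.90, adjusted p = 0.00651) encodes an enzyme that clears wrongly charged transfer RNAs. Hddc3 (0.93, adjusted p = 0.00446) encodes a phosphatase of NADPH, Myadm (0.93, adjusted p = 0.0424) a membrane protein of myeloid cells and Zfp944 (0.87, adjusted p = 0.0136) a zinc finger protein. Smim10l1 (0.84, adjusted p = 0.0154) had a second probe at -1.32, so its direction is uncertain, and with the mean of both probes its difference was -0.24 (adjusted p = 0.352). Hddc3 was well above background in 1 of 4 Cdk6-/- samples, and with the processed signals its difference was 1.92 and its call was lost. Its probe, too, was kept only through the K43M samples. Hddc3 and Dtd2 passed in all 8 fits without a sample. With the replicate number as a block the call of Dtd2 was lost (adjusted p = 0.0616). The calls of Zfp944 and Smim10l1 were lost without Cdk6-/- replicate 1 or 4 or K43M replicate 1 or 3 (adjusted p up to 0.0615 and 0.072). That of Myadm held only without Cdk6-/- replicate 2 or K43M replicate 1 (up to 0.149 otherwise).

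**Figure D1:**
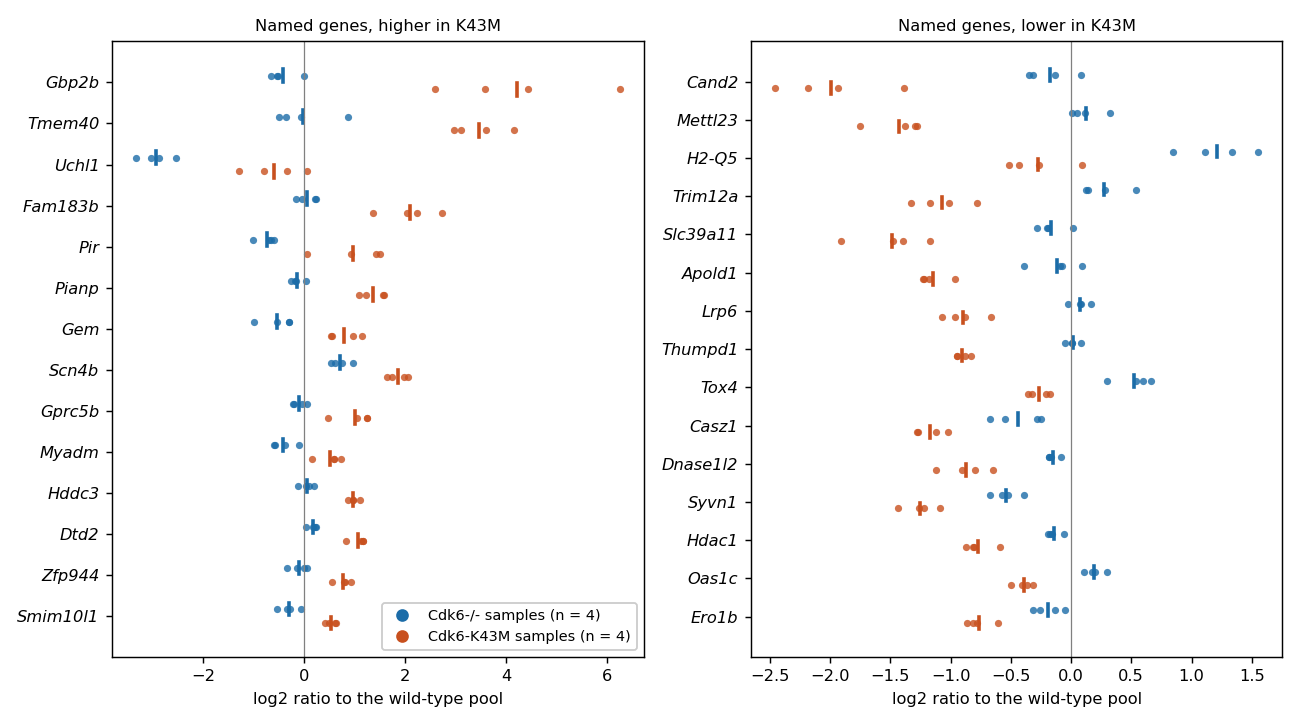
Log2 ratio to the wild-type pool (horizontal axis) of 29 named genes that passed, 14 higher (left) and 15 lower (right) in Cdk6-K43M. Points are samples (4 Cdk6-/- in blue, 4 Cdk6-K43M in orange) and short bars are group means; in no gene do the points of the groups overlap.

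Cand2 had the lowest level in Cdk6-K43M relative to Cdk6-/- among the genes named here. It encodes a regulator of cullin ubiquitin ligases that is best known from muscle. Sample log2 ratios were 0.081, -0.31, -0.35 and -0.14 in Cdk6-/- and -2.19, -2.46, -1.94 and -1.39 in K43M replicates 1 to 4. The Cdk6-/- samples lay near the pool and the K43M samples far below it, where the probe was well above background in 1 of 4 samples. The difference was -1.81 (log2, SE 0.21, adjusted p = 0.00989), with -2.27, -1.68 and -1.62 within the slides. It passed in all 8 fits without a sample, but its call was lost with the slide block (adjusted p = 0.078) and with the processed signals, where the difference was -4.25.

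Mettl23 encodes a methyltransferase. It had 0.012, 0.11, 0.32 and 0.052 in Cdk6-/- and -1.28, -1.38, -1.29 and -1.75 in K43M replicates 1 to 4. The Cdk6-/- samples were level with the pool or slightly above it, and the K43M samples were all at least 1.28 below it. The difference was -1.55 (log2, SE 0.12, adjusted p = 0.00159), with -1.29, -1.75 and -1.41 within the slides, and it passed under every alternative run.

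H2-Q5, a class I gene of the major histocompatibility complex, and Trim12a, a member of the TRIM family of antiviral restriction factors, were above the pool in every Cdk6-/- sample. H2-Q5 had 1.33, 0.84, 1.55 and 1.11 in Cdk6-/- and 0.095, -0.51, -0.43 and -0.26 in K43M replicates 1 to 4. Trim12a had 0.14, 0.13, 0.28 and 0.54 in Cdk6-/- and -1.17, -1.01, -1.33 and -0.78 in K43M. All K43M samples of Trim12a were below the pool, and those of H2-Q5 lay around it. The differences were -1.49 (log2, SE 0.18, adjusted p = 0.0103) and -1.34 (log2, SE 0.14, adjusted p = 0.00514), and the second Trim12a probe gave -1.15. H2-Q5 and Trim12a have close relatives beside them in the genome that a probe may also read. Without Cdk6-/- replicate 1 the adjusted p of H2-Q5 was 0.0521, while Trim12a passed under every alternative run. Oas1c, a relative of the interferon-induced oligoadenylate synthetases, fell too, at -0.59 (log2, SE 0.074, adjusted p = 0.0132), but its second probe gave -0.0083 and its call was lost without Cdk6-/- replicate 1 or 2 (adjusted p up to 0.0618).

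Lrp6 and Thumpd1 passed under every alternative run, and Apold1 under every one that measured it. Lrp6 encodes a co-receptor of the Wnt pathway and had 0.17, -0.026, 0.086 and 0.07 in Cdk6-/- and -0.66, -0.97, -1.08 and -0.88 in K43M replicates 1 to 4. Thumpd1, which encodes an RNA-binding adaptor of transfer RNA acetylation, had 0.012, -0.052, 0.011 and 0.081 in Cdk6-/- and -0.95, -0.88, -0.95 and -0.83 in K43M. In both genes the Cdk6-/- samples sat at the pool's level and the K43M samples below it. The differences were -0.97 (log2, SE 0.098, adjusted p = 0.00514) and -0.92 (log2, SE 0.067, adjusted p = 0.00126), and the second Lrp6 probe gave only -0.16. Apold1, an early-response gene of endothelial cells, was not well above background in any K43M sample. It was at least 2-fold lower there (fitted adjusted p = 0.00733), from -1.18, -1.23, -0.96 and -1.22 in K43M against 0.087, -0.076, -0.091 and -0.39 in Cdk6-/-.

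Hdac1, a histone deacetylase, had -0.19, -0.15, -0.18 and -0.056 in Cdk6-/- and -0.87, -0.81, -0.82 and -0.59 in K43M replicates 1 to 4. The K43M samples were all below the pool and below every Cdk6-/- sample, with a difference of -0.63 (log2, SE 0.082, adjusted p = 0.0165) and -1.33 on a second probe. Tox4, which encodes a subunit of a phosphatase complex on chromatin, was at -0.79 (adjusted p = 0.0111), with 0.034 on its second probe. Casz1, a zinc finger transcription factor, was at -0.73 (adjusted p = 0.0375), with -0.057 and -0.040 on its other probes. Tox4 passed in all 8 fits without a sample and was lost with the slide block (adjusted p = 0.0675). Hdac1 was lost without Cdk6-/- replicate 1, 2 or 4 or K43M replicate 1 or 3 (adjusted p up to 0.0684). Casz1 was lost whichever sample was left out (0.0512 to 0.117).

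Syvn1, the ubiquitin ligase that clears misfolded proteins from the endoplasmic reticulum, and Ero1b, an oxidase that forms disulphide bonds there, were both lower in Cdk6-K43M. Syvn1 was at -0.71 (adjusted p = 0.021) and Ero1b at -0.58 (adjusted p = 0.0362). The zinc transporter gene Slc39a11 was at -1.32 (adjusted p = 0.00809), with -1.14 on a second probe, and the nuclease gene Dnase1l2, well above background in 2 of 4 K43M samples, at -0.71 (adjusted p = 0.0276). Slc39a11 passed in all 8 fits without a sample and was lost with the slide block (adjusted p = 0.072). Ero1b passed only without K43M replicate 2 (adjusted p up to 0.11 otherwise), Syvn1 only without Cdk6-/- replicate 2 or K43M replicate 1 or 4 (up to 0.0848), and Dnase1l2 only without K43M replicate 3 or 4 (up to 0.0974). Of the 35 genes under the naming rule that passed, the slide block ended the call of 20 and the processed signals that of 13. The replicate number as a block ended that of 21.

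The genotype means of the 113 genes were also set against the pool. In 82 the means lay on opposite sides of the pool, in 13 both were above it and in 18 both below it. The 82 include genes with a Cdk6-/- mean at the pool's level, such as Thumpd1 (0.013) and Tmem40 (-0.015), where its sign says little. The K43M mean was the farther from the pool in 88 genes and the Cdk6-/- mean in 25. Uchl1 and H2-Q5 are examples of the second kind, and Tmem40, Mettl23 and Thumpd1 of the first. Such counts were not made over all genes tested, so nothing particular to the 113 genes can be read from them. Since the groups share the pool, an error in the pool shifts both means alike and leaves their difference as it is.

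**Figure D2:**
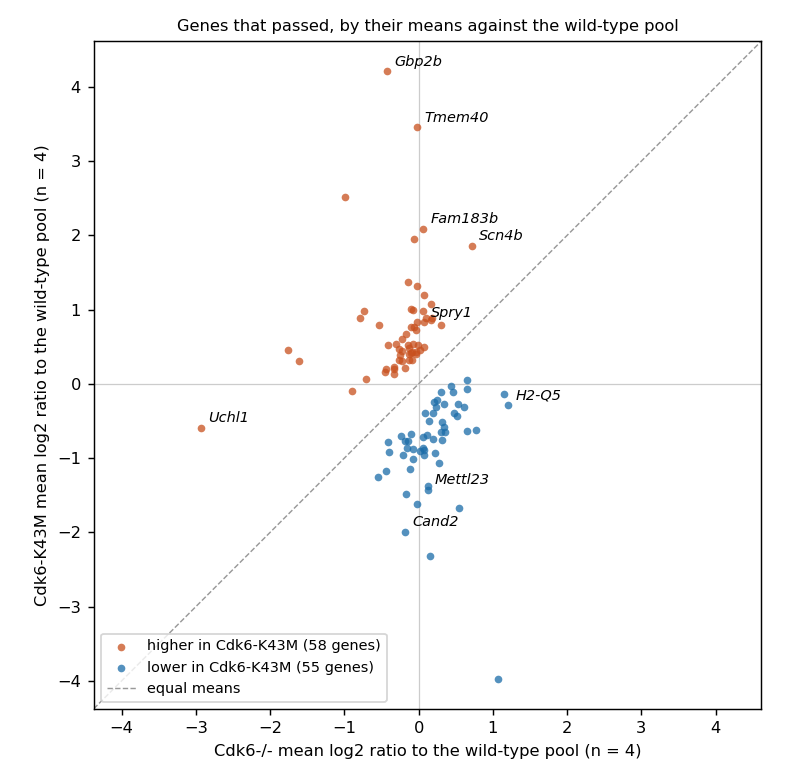
Mean log2 ratio (mutant over wild-type pool) of Cdk6-/- (horizontal axis) and of Cdk6-K43M (vertical axis), each over 4 samples, for the 113 genes that passed, 58 higher (orange) and 55 lower (blue) in Cdk6-K43M. The dashed line marks equal means, and most points stand nearer to the vertical zero line than to the horizontal one, since the K43M mean was the farther from the pool in 88 genes.

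Several genes that passed lay side by side. Their order was taken from RefSeq annotation of GRCm38.p6, and neighbours were counted among tested genes with a symbol. On chromosome 6, Tmem40 (higher in Cdk6-K43M) and Cand2 (lower) lay within 5 consecutive tested genes. Also on chromosome 6, Smim10l1, Lrp6 and Apold1 lay within 10 consecutive tested genes. On chromosome 7, Gprc5b (higher) and Thumpd1 (lower) were next to each other, as were Trim12a and Gm15133 (both lower). On chromosome 6, 8 of 631 tested genes passed (1.27%), on chromosome 7, 11 of 1050 (1.05%), on chromosome 5, which holds Cdk6, 8 of 778 (1.03%) and on chromosome 17, 7 of 696 (1.01%), against 68 of 12997 (0.523%) of all genes with a symbol. Of the 113 genes, 45 carried no symbol, and their differences ran from -5.04 to 2.01.

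Among the cell cycle genes closest to CDK6 no difference passed. None of 30 genes for CDK4, CDK6, D-type cyclins, their inhibitors, RB proteins and E2F factors passed, with a list median of 0.032, against -0.0095 over all genes. Of these, 5 had an unadjusted p under 0.05, all higher in Cdk6-K43M (16.7%, against 14.1% of all genes). Cdk4, the closest relative of Cdk6, had -0.33, -0.30, -0.45 and -0.23 in Cdk6-/- and -0.37, -0.46, -0.38 and -0.25 in K43M replicates 1 to 4, and the difference was -0.039 (adjusted p = 0.857). The groups overlapped. Ccnd1, which encodes cyclin D1, had -0.63, 1.32, -0.27 and 0.39 in Cdk6-/- and 0.99, 0.99, 1.07 and 2.54 in K43M, a difference of 1.19 (adjusted p = 0.315) with overlapping groups.

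Among the inhibitors, Cdkn1c, which encodes p57, had -0.96, -0.37, -1.24 and -3.03 in Cdk6-/- and 0.47, 0.51, -0.28 and 0.41 in K43M replicates 1 to 4. All K43M samples were above all Cdk6-/- samples, but Cdk6-/- replicate 4 was far below the rest, and the difference was 1.67 (adjusted p = 0.209). Cdkn1a, which encodes p21, had -0.88, -0.76, -0.83 and -0.85 in Cdk6-/- and -0.26, 0.36, -0.79 and -0.14 in K43M. Its Cdk6-/- samples were tightly grouped and K43M replicate 3 lay among them, with a difference of 0.62 (adjusted p = 0.244) and 0.63 on a second probe. Cdkn2a, the locus of p16 and p19ARF, was at 0.31 (adjusted p = 0.681) and Rb1 at -0.032 (adjusted p = 0.929).

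No gene of the cell cycle stages that follow passed either. None of 40 DNA replication and G1/S genes passed (median 0.021, 3 at an unadjusted p under 0.05, or 7.5%), and none of 35 mitotic genes (median 0.0021, 4 at an unadjusted p under 0.05, or 11.4%). The share over all genes was 14.1%. Cdc6, which loads the replicative helicase, had -0.67, -0.41, -0.63 and -0.21 in Cdk6-/- and -0.056, -0.10, -0.22 and -0.014 in K43M, at 0.38 (adjusted p = 0.202) with groups that just overlap. Cdca3, a trigger of mitotic entry, was lower in every K43M sample than in every Cdk6-/- sample, at -0.58 (adjusted p = 0.0779). Its K43M ratios were -0.64, -1.05, -0.63 and -0.89, against -0.37, -0.21, -0.17 and -0.13.

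Of 46 p53 target genes 1 passed (against 0.513% of all genes), Plk3, a stress-responsive polo-like kinase that is also an immediate early gene. It had log2 ratios of 0.012, -0.057, -0.19 and 0.071 in Cdk6-/- and 0.77, 0.49, 0.75 and 0.91 in K43M replicates 1 to 4. The Cdk6-/- samples lay at the pool's level and the K43M samples above it, with a difference of 0.77 (log2, SE 0.10, adjusted p = 0.0201) and 1.28 with the processed signals. The call was lost without Cdk6-/- replicate 1, 2 or 3 or K43M replicate 1 or 3 (adjusted p up to 0.0772). The list median was 0.028, and 7 members had an unadjusted p under 0.05 (15.2%, against 14.1% of all genes), 3 higher and 4 lower. Relative to the pool the median of the list was -0.35 in Cdk6-/- and -0.36 in Cdk6-K43M. None of 16 genes for p53 and its antagonists passed. Rchy1, a ubiquitin ligase of p53, was at -0.46 (adjusted p = 0.181) and Mdm4, an inhibitor of p53, at -0.27 (adjusted p = 0.229).

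None of 13 BCL2 family genes passed, with a median of 0.022. Bid, which encodes a death activator cut by caspases, had 0.12, 0.10, -0.27 and 0.39 in Cdk6-/- and 0.80, 0.74, 0.72 and 0.64 in K43M replicates 1 to 4. Every K43M sample was above every Cdk6-/- sample, at 0.64 (adjusted p = 0.0944). Bbc3, the p53-induced death gene PUMA, was at -0.46 (adjusted p = 0.332) and the survival gene Mcl1 at -0.28 (adjusted p = 0.318), both with overlapping groups.

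Among 26 immediate early genes, which cells switch on within minutes of a growth signal, Spry1 and Ier2 passed, both higher in Cdk6-K43M. Over all genes tested, 0.264% passed as higher. Plk3 and Apold1, named above as early-response genes, are not in this list. Both passed, Plk3 higher and Apold1 lower in Cdk6-K43M. Of the list, 7 had an unadjusted p under 0.05, all higher in Cdk6-K43M (26.9%, against 14.1% of all genes), and 21 of the 26 differences were above 0 (80.8%, against 47.6%). The list median was 0.17, and sample medians were -0.25, -0.065, -0.26 and -0.037 in Cdk6-/- and -0.09, 0.12, -0.12 and 0.18 in K43M replicates 1 to 4, which overlap. Spry1 encodes a feedback inhibitor of receptor tyrosine kinase signalling. Its log2 ratios were 0.049, 0.15, 0.019 and 0.084 in Cdk6-/- and 0.84, 0.88, 0.87 and 0.74 in K43M replicates 1 to 4. Both groups were tight and far apart, with a difference of 0.76 (log2, SE 0.067, adjusted p = 0.00236), 0.79, 0.76 and 0.72 within the slides, and the gene passed under every alternative run.

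Ier2 had -0.098, -0.30, -0.35 and -0.12 in Cdk6-/- and 0.30, 0.63, 0.26 and 0.56 in K43M replicates 1 to 4. It was below the pool in every Cdk6-/- sample and above it in every K43M sample, at 0.66 (log2, SE 0.11, adjusted p = 0.0441), but did not pass whichever sample was left out (0.0715 to 0.13). A further 4 members showed no overlap between the groups without passing, which makes 6 of 26 without overlap (23.1%, against 8.15% of all genes). The Kruppel-like factor gene Klf6 had -0.24, -0.0028, 0.10 and -0.48 in Cdk6-/- and 0.49, 0.43, 0.52 and 0.55 in K43M, at 0.65 (adjusted p = 0.0784). Myc, the growth-promoting transcription factor gene, had -0.59, -0.64, -0.90 and -0.49 in Cdk6-/- and 0.022, 0.38, -0.25 and -0.095 in K43M, at 0.67 (adjusted p = 0.112). In Myc all Cdk6-/- samples were below the pool and the K43M samples lay around it. Klf2, which keeps lymphocytes quiescent, was at 0.61 (adjusted p = 0.128) and far below the pool in both genotypes, and Jund, an AP-1 subunit, was at 0.34 (adjusted p = 0.215). The lists of immediate early genes and of genes linked to CDK6 overlap in Egr1 (0.43, adjusted p = 0.314). Among 14 genes tied to the role of CDK6 in transcription, which include the transcription factor genes Stat3, Sp1 and Nfya, none passed (median -0.016).

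Of 32 ribosome biogenesis and MYC network genes 1 passed, Mnt, against 0.513% of all genes. Mnt encodes a repressor that competes with MYC for its partner MAX. It had log2 ratios of -0.055, -0.28, 0.014 and -0.11 in Cdk6-/- and -0.58, -0.59, -0.74 and -0.81 in K43M replicates 1 to 4, all K43M samples being lower. The difference was -0.57 (log2, SE 0.091, adjusted p = 0.0405), with opposite sign to that of Myc, and it passed only without Cdk6-/- replicate 2 (adjusted p up to 0.149 otherwise). A further 7 members had an unadjusted p under 0.05, all higher in Cdk6-K43M, among them Polr1b, a subunit of RNA polymerase I (0.59, adjusted p = 0.247), and Wdr12, a ribosome assembly factor (0.34, adjusted p = 0.276). With Mnt, 25% of the list had an unadjusted p under 0.05, against 14.1% of all genes. The list median was 0.092.

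Glycolysis and hypoxia genes were mostly higher in Cdk6-K43M without any of 27 passing. Of these, 10 had an unadjusted p under 0.05 (37%, against 14.1% of all genes), 8 higher and 2 lower. Above 0 were 21 differences (77.8%, against 47.6%). The list median was 0.28, and sample medians were -0.078, 0.46, -0.031 and -0.20 in Cdk6-/- and 0.11, 0.35, 0.53 and 0.23 in K43M replicates 1 to 4. Cdk6-/- replicate 2 lay among the K43M samples and the other Cdk6-/- samples below all of them. Without it the list median was 0.42.

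Ankrd37, a target of hypoxia-inducible factor, had -0.20, 0.81, -0.32 and -0.48 in Cdk6-/- and 2.26, 2.67, 3.52 and 0.98 in K43M replicates 1 to 4. Slc2a1, which encodes the glucose transporter GLUT1, had -0.078, 0.48, -0.031 and 0.23 in Cdk6-/- and 0.89, 1.21, 1.48 and 0.66 in K43M. Neither gene's groups overlapped, Cdk6-/- replicate 2 was the highest of its group in both, and the differences were 2.41 (adjusted p = 0.106) and 0.91 (adjusted p = 0.112). Slc16a3, the lactate exporter gene, was at 1.60 (adjusted p = 0.181), where Cdk6-/- replicate 2 (-1.08, 0.66, -0.82 and -1.11 in replicates 1 to 4) overlapped the K43M samples. Hif1a, the oxygen-sensing factor itself, was lower in every K43M sample, at -0.39 (adjusted p = 0.228).

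**Figure D3:**
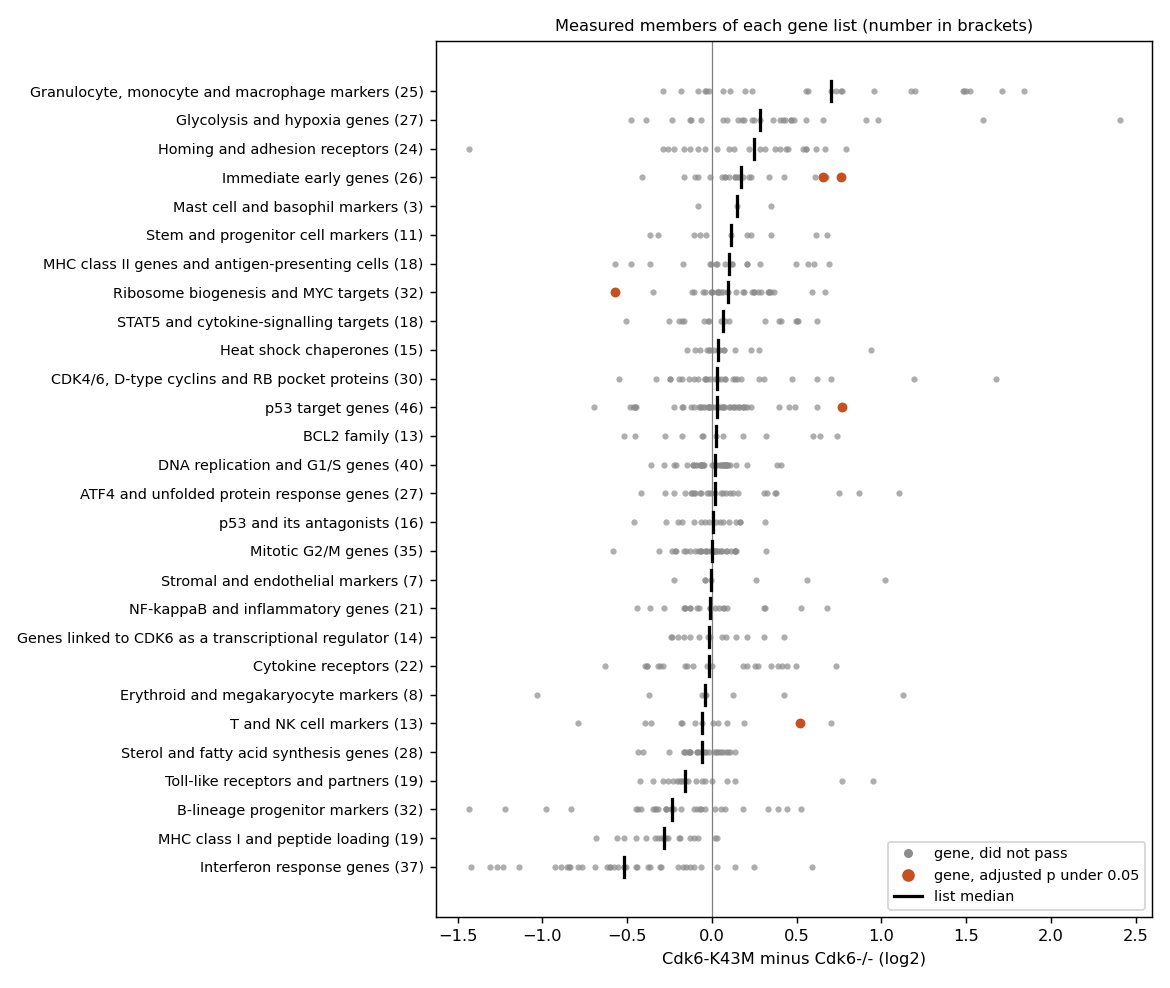
Difference between Cdk6-K43M and Cdk6-/- (log2, horizontal axis) of every measured member of 28 gene lists, ordered by list median (black bars). Orange points are the 5 list members drawn that passed, namely Spry1, Ier2, Plk3, Mnt and Tcf7; all other members (grey) did not pass.

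Interferon response genes were lower in most K43M samples, and no member of the list, which holds neither Gbp2b nor Trim12a, passed. Of 37 genes 4 had a difference above 0 (10.8%), and the list median was -0.52, but 3 had an unadjusted p under 0.05 (8.11%, against 14.1% of all genes). Sample medians were 0.17, -0.0026, -0.56 and 0.86 in Cdk6-/- and -0.40, -0.44, -0.93 and 0.66 in K43M replicates 1 to 4. Replicate 4 was the highest in both genotypes, and Cdk6-/- replicate 3 lay among the low K43M samples, so the groups overlapped. Without K43M replicate 4 the list median was -0.77 and without Cdk6-/- replicate 4 it was -0.34. Ifit3, an interferon-induced antiviral gene, had -0.011, -0.10, -1.03 and 0.85 in Cdk6-/- and -1.32, -2.07, -2.45 and 0.31 in K43M, at -1.31 (adjusted p = 0.366). Irf8, a transcription factor of B cells and macrophages, was lower in every K43M sample, at -0.44 (adjusted p = 0.173).

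Class I genes showed the same sign with less spread. None of 19 listed genes of MHC class I and peptide loading passed. H2-Q5, which did, is not in this list. Of the 19, 7 had an unadjusted p under 0.05, all lower in Cdk6-K43M (36.8%, against 14.1% of all genes), and the list median was -0.28. H2-D1, a classical class I gene, had 0.18, 0.16, 0.44 and 0.28 in Cdk6-/- and -0.20, -0.79, -0.84 and 0.15 in K43M replicates 1 to 4. The groups did not overlap, though K43M replicate 4 lay just below the lowest Cdk6-/- sample, and the difference was -0.68 (adjusted p = 0.221). H2-Q7 was at -0.52 (adjusted p = 0.167) and H2-T23, a nonclassical gene, at -0.34 (adjusted p = 0.181), both without overlap.

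B-lineage markers were on balance lower in Cdk6-K43M, with none of 32 passing. Of these, 7 had an unadjusted p under 0.05, all lower (21.9%, against 14.1% of all genes), and the list median was -0.23. Over the alternatives that median ran from -0.27 to -0.027, so its size depends on the processing. Ly6d, a surface marker of B-cell commitment, had -1.44, -2.06, -0.32 and -2.10 in Cdk6-/- and -2.59, -2.87, -2.51 and -3.69 in K43M replicates 1 to 4. Cdk6-/- replicate 3 was the highest and K43M replicate 4 the lowest, with no overlap, at -1.43 (adjusted p = 0.197). Blk, a SRC-type kinase of the B-cell receptor, was at -0.83 (adjusted p = 0.185) with overlapping groups, and Pou2af1, a B-cell coactivator, at -0.42 (adjusted p = 0.193). In such bulk RNA, fewer cells of a type and less RNA per cell cannot be told apart.

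Macrophage genes were high in 1 sample. Over 25 measured granulocyte, monocyte and macrophage markers the sample medians lay between -1.23 and -0.59 in Cdk6-/- and were -0.78, -0.34, -0.75 and 1.14 in K43M replicates 1 to 4. K43M replicate 4 was above the pool and every other sample below it. The list median of the difference was 0.71 and was 0.13 without that sample, and no member passed. Adgre1, a macrophage surface antigen, had -2.12, -0.70, -1.70 and -1.95 in Cdk6-/- and -1.60, -0.73, -1.41 and 2.07 in K43M. Lyz2, a lysozyme of macrophages and granulocytes, had -1.58, -0.46, -0.85 and -2.13 in Cdk6-/- and -0.56, -0.0011, -0.74 and 2.24 in K43M. Both were far higher in K43M replicate 4 than elsewhere. The neutrophil granule genes Camp, Ngp and Mpo were above background in the pool and not in the 8 mutant samples, and the calprotectin gene S100a9 was between -4.55 and -3.48 in all of them. The part of these cells in the differences above was not tested. Of the 35 genes under the naming rule that passed, 10 were lost without this sample.

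**Figure D4:**
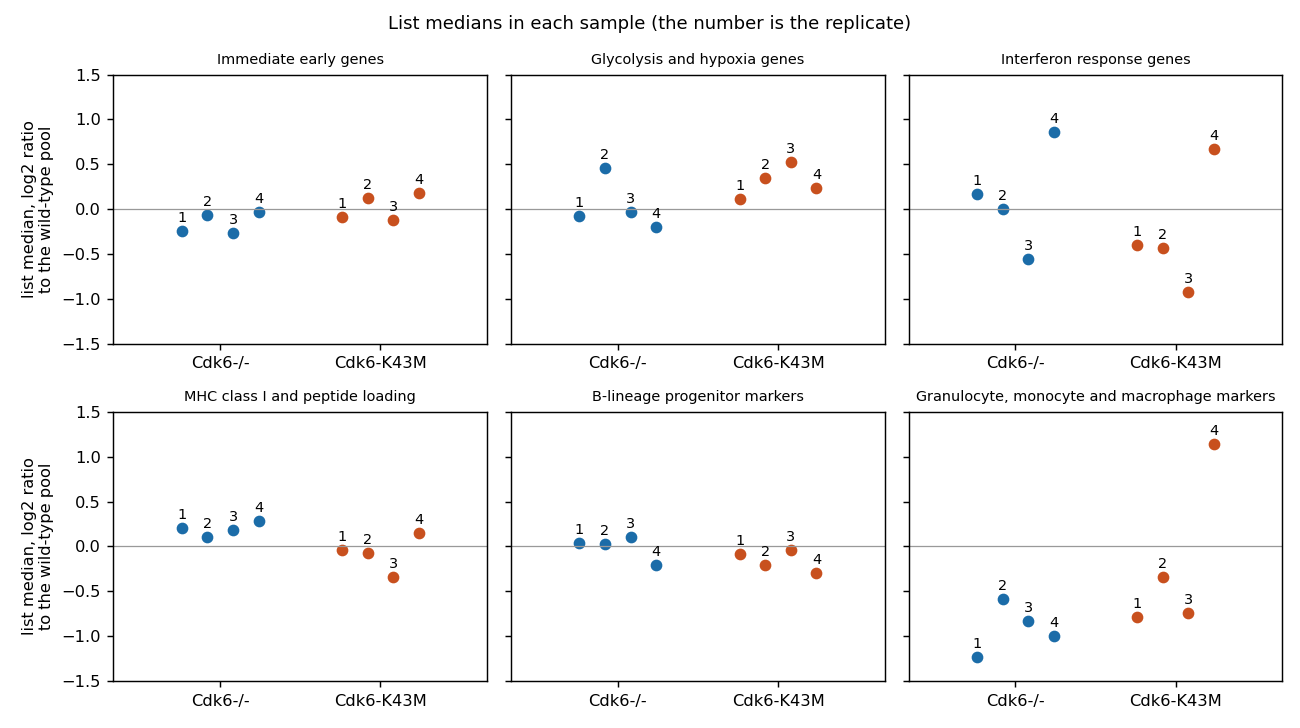
Median log2 ratio to the wild-type pool (vertical axis) of 6 gene lists in each Cdk6-/- (blue) and Cdk6-K43M (orange) sample, numbered by replicate. Macrophage markers are high only in K43M replicate 4 (1.14), and interferon response genes are highest in replicate 4 of both genotypes (0.86 and 0.66).

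The remaining lists of other cell types showed little. Of 13 T and NK cell markers only Tcf7 passed (against 0.513% of all genes), a transcription factor of T cells and early progenitors. Sample log2 ratios were -0.22, -0.33, -0.25 and -0.50 in Cdk6-/- and 0.30, 0.24, 0.081 and 0.16 in K43M replicates 1 to 4. In Cdk6-/- the probe did not rise well above background, and the gene was at least 1.39-fold higher in Cdk6-K43M (fitted adjusted p = 0.047). It did not pass whichever sample was left out (0.0923 to 0.143). None passed among 8 erythroid and megakaryocyte, 3 mast cell, 11 stem and progenitor cell, 18 MHC class II and 7 stromal and endothelial markers. Hbb-bt, a beta-globin gene, was lower in every K43M sample, at -1.03 (adjusted p = 0.212), with Cdk6-/- replicate 3 at 1.64.

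Genes on the Y chromosome varied between samples of both genotypes. Eif2s3y had 0.075, -5.42, -5.20 and 0.10 in Cdk6-/- and 0.18, -5.29, 0.14 and -0.045 in K43M replicates 1 to 4. It was far below the pool in Cdk6-/- replicates 2 and 3 and in K43M replicate 2 and level with it in the others. Uty and Ddx3y stayed between -0.15 and 0.38 in all samples, and Kdm5d was low in Cdk6-/- replicate 2 alone (-2.05). None of the 4 passed.

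Signalling lists named for other pathways held no gene that passed. Syvn1 and Ero1b, which act in the endoplasmic reticulum and passed as lower in Cdk6-K43M, are in none of these lists. Among 27 ATF4 and unfolded protein response genes (median 0.019) Trib3, a pseudokinase induced by amino acid shortage, had 0.63, 0.31, 0.68 and 0.34 in Cdk6-/- and 1.01, 1.86, 1.65 and 1.85 in K43M replicates 1 to 4. Its groups did not overlap, K43M replicate 1 was the nearest to the Cdk6-/- samples, and the ratio of the means was 2.15 (adjusted p = 0.0546). Asns and Chac1, of the same response, were at 0.87 (adjusted p = 0.225) and 0.75 (adjusted p = 0.201). Socs2, a feedback inhibitor of cytokine signalling and the member with the smallest p of 18 STAT5 and cytokine-signalling targets, was at -0.51 (adjusted p = 0.151). In the 24 homing and adhesion receptors the list median was 0.25, and 0.052 without K43M replicate 4. Medians were -0.011 over 21 NF-kappaB and inflammatory genes, -0.16 over 19 Toll-like receptor genes, -0.016 over 22 cytokine receptors, -0.059 over 28 sterol and fatty acid synthesis genes and 0.039 over 15 heat shock chaperones.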

How the data were processed

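RNA of 8 single mutant samples and 1 wild-type pool was read on Agilent 2-colour arrays. The deposited scanner tables hold spot intensities per channel, written, per the file headers, by version 11.5.1.1 of Feature Extraction. A deposited series table holds the authors' normalized log2 signals of each channel, and 68 of its cells were not numbers. The red minus the green signal served as an alternative log2 ratio. Median spot and local background intensities were corrected with normexp (offset 50) and normalized by loess within each array in limma 3.58.1 (R 4.3.3), without control spots. Spots of a probe were averaged, leaving 56605 probes. A probe was kept if well above background on at least 3 of 4 arrays of a genotype, or in the pool channel on at least 5 of 10 arrays, and the brightest of 28177 kept probes stood for a gene. Symbols came from RefSeq (GRCm38.p6) by accession for 58.3% of probes. No spot was saturated. Differences were tested with lmFit and eBayes on 8 arrays (6 residual and 2.86 prior degrees of freedom) with Benjamini-Hochberg adjustment over 22008 genes, and the procedure was tested on simulated data.

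Named genes were Cdk6, the 15 highest and 15 lowest differences among passing genes with a symbol and groups without overlap (clone and predicted names left out), and up to 4 members of each of 29 lists by smallest p. Cdk4, Ccnd1, Cdkn2a, Rb1, Klf2, Jund, Hif1a, Adgre1, S100a9, Asns, Camp, Ngp and Mpo, and the 4 promoters shown, were chosen after values were seen. Some genes under this rule are not reported here. Members and lists were chosen with earlier results of these data known. Alternatives changed the background correction, normalization, dim-probe filter, probe choice, arrays and blocks, used the deposited table, or left out each sample. Array number limits the precision.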

Additional observations from a re-analysis of the deposited data

Results flagged for a closer look

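Within each genotype, 280 groups of 4 values (the named genes in each genotype) were searched for a sample far from the other 3, and 18 were found. Chance gives about 1 group in 20. K43M replicate 4 gave 6 of them, with Traf1, an adaptor of TNF receptors, at 2.14, S1pr2, a sphingosine phosphate receptor, at 1.28, the fibronectin gene Fn1 at 1.02, the von Willebrand factor gene Vwf at 0.86, Tfdp1, the E2F partner, at 0.39 and Trp53inp1, a p53 target, at -1.13. K43M replicate 3 was apart in Cdkn1c (-0.28, against 0.41 to 0.51) and in Cd79b (-0.51, against -0.83 to -0.78). K43M replicate 1 was the lowest in Dtd2 (0.82, against 1.13 to 1.17), and K43M replicate 2 in Eif2s3y (-5.29).

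Among Cdk6-/- samples, replicate 3 was apart in Hbb-bt (1.64, against 0.39 to 0.47), Ddx3y (0.38), S1pr2 (0.094) and Unc93b1 (-0.078), replicate 2 in Slc16a3 (0.66, against -1.11 to -0.82) and Kdm5d (-2.05), and replicate 4 in H2-DMb1 (-0.34) and Socs2 (-0.020). Dtd2 is the only one of these genes that passed between the genotypes.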

How the results depend on the processing

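The count of 113 genes (58 higher, 55 lower) was 73 (35 higher, 38 lower) with Agilent's processed signals, 33 (18 and 15) with the slide as a block, and 559 (284 and 275) with all 10 arrays and a dye term, which adds pools of the same RNAs. With median centring 126 passed, 83 higher and 43 lower (65.9% higher), and all genes shifted by 0.070. Without each sample in turn 36 to 77 passed, 18 to 33 higher and 18 to 44 lower. The deposited table gave 100, of which 94 were among the 113. Cdk6 passed with Agilent's processed signals (1.63), median centring (0.84) and all 10 arrays (0.77). The direction of all 113 genes was kept in each alternative that measured them, except 1 with the mean of probes, Smim10l1 (-0.24). In the fits without a sample this had to be so, as the groups of these genes do not overlap. Of genes that did not pass, Ddx3y turned to 0.024 without Cdk6-/- replicate 3 (range -0.12 to 0.024 without each sample) and Fn1 to -0.088 without K43M replicate 4 (-0.088 to 0.41). Of the 35 genes under the naming rule that passed, 8 passed under every alternative that measured them. The cause of these changes was not tested.

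Deviations of samples of the same number correlated at -0.066 to 0.228, and those of different numbers at -0.246 to 0.201. Best with their own were 2 of 4 numbers. These few values cannot settle whether the numbers are pairs, and the main fit did not treat them as such. With the replicate number as a block 37 genes passed, 16 higher and 21 lower, 30 of them among the 113. Probes near background limit the values of dim genes to lower bounds.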

Other observations

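The 2 arrays with exchanged dyes, each a pool of the 4 samples of a genotype, belong to no comparison above. Between them, 112 of the 113 genes had the same sign as in the single samples, from the same RNAs. Gbp2b differed by 5.65, Tmem40 by 3.60, Uchl1 by 2.68, Mettl23 by -1.53 and Spry1 by 0.93 (log2, Cdk6-K43M minus Cdk6-/-). The exception, a probe without a symbol, differed by 0.44 in the single samples and by -0.11 between the pools.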
